A study of Mus musculus with 6 samples.

Results

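The miR-132 and miR-212 cluster is a pair of microRNA hairpins that lie next to each other on mouse chromosome 11 and give 4 mature microRNAs, the 5p and 3p arms of each hairpin. Its members were taken as every entry of these hairpins in the deposited table, which gave 4 of 1915 distinct mature names, each with a single entry. Small RNAs were sequenced from iBN cells, a suspension line grown with GM-CSF that the labels describe as granulocyte-macrophage progenitors and that carries an inducible system for PU.1, the product of Spi1 and a transcription factor of the myeloid lineage. Cells given 1000 ng/ml doxycycline for 72 hours to switch the system on (induced, n = 3 libraries) were compared with cells left uninduced (n = 3 libraries). Both groups carried the same inducible system, and each held trials 1, 2 and 3. The labels do not say whether the line is 1 clone or whether trials were separate cultures, so the spread that the p-values rest on may be technical. The level of PU.1 was not measured by this assay, and doxycycline-treated cells without the inducible system were not analysed here.

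Animal microRNAs are cut from a hairpin as a duplex, and the strand kept by Argonaute pairs with target messenger RNAs mainly through its seed, bases 2 to 8. In the mouse, miR-132 and miR-212 are made from a shared primary transcript that is best known as a target of CREB in neurons, where the pair acts in synaptic plasticity. In immune cells miR-132 is known to be induced by Toll-like receptor signalling, and acetylcholinesterase and the coactivator Ep300 are reported targets.

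The mature sequences show which of the 4 arms can share targets. RefSeq sequences of GRCm38.p6 (the assembly also called mm10) matched all 4 names and are printed 5′ to 3′ with the seed in capitals. The prefix mmu marks mouse names and is left out where it is not needed.
mmu-miR-132-3p: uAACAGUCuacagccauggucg
mmu-miR-212-3p: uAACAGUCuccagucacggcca
mmu-miR-132-5p: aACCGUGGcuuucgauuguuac
mmu-miR-212-5p: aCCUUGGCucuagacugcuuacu

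The 3p arms had the same seed, AACAGUC, and were identical over their first 9 bases. Over their 22 bases 17 were identical. Counted from 1 at the 5′ end, with the base of miR-132-3p first, the differences were A10C, C14U, U17C, U20C and G22A. Of the 1623 table names with a RefSeq mature sequence, only these 2 had this seed. The 5p arms had seeds of their own, ACCGUGG for miR-132-5p and CCUUGGC for miR-212-5p, that no other of these names carried. No other name with at least 100 reads had counts within 1% of those of a member in every library.

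The hairpins are printed with both mature arms in capitals, to show where each arm sits around the loop.
Mir212: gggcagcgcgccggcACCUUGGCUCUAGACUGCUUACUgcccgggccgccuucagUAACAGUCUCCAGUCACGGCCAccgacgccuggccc
Mir132: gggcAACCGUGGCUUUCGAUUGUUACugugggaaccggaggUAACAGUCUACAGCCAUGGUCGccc

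In GRCm38 the miR-212 hairpin lies at chr11:75173388-75173478 and the miR-132 hairpin at chr11:75173682-75173747, both on the plus strand and 203 bases apart. GENCODE M21 places both in an intron of the non-coding transcript 1700016P03Rik, on the same strand. The nearest protein-coding genes in that annotation, Hic1 and Ovca2, are on the minus strand.

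The libraries held 9089319 to 13946613 reads in the induced group and 8697384 to 11714847 in the uninduced group, with 1 entry kept per mature name. The 4 arms together took 538 to 1183 reads of each induced library and 1001 to 1389 of each uninduced library. All 4 passed the filter on low counts, which left 525 microRNAs to test. For the labelled cell type, 10 arms of 5 myeloid or inflammatory microRNAs, such as miR-223 and miR-142a, were examined, and none was at 0. Their summed level was 227000 to 271000 CPM (reads scaled to a common library size with TMM factors) in the induced libraries and 212000 to 272000 CPM in the uninduced libraries. Most of it was miR-146b-5p, with means of 147000 CPM induced and 143000 CPM uninduced. The 12 names of a lymphoid list, given below, had none at 0 either, so these values do not test the label.

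All 4 arms were lower in induced than in uninduced cells in each of the 3 trials. The quasi-likelihood test of edgeR, fitted on the group alone, called 1 of the 4, miR-132-3p. The threshold was a Benjamini-Hochberg adjusted p of 0.05, taken over all 525 microRNAs. In that test 2.67% of the microRNAs were called lower. Being lower in every trial was less rare, at 29.5% of the 525. With the trial as a block in the edgeR fit, 3 of the 4 were called lower, beside 11.0% of the 525. In the blocked edgeR fit without trial 3 the lowest adjusted p of the 4 was 0.0536. Summed over both hairpins, the cluster had 70.3 ± 14.5 CPM in induced and 115 ± 10.6 CPM in uninduced cells (SD, n = 3 each), or 61.0% of the uninduced level. The 4 arms come from a single primary transcript, so they are not independent measurements of its change. In bulk libraries, fewer cells of a type and less RNA per cell cannot be told apart.

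**Figure D1:**
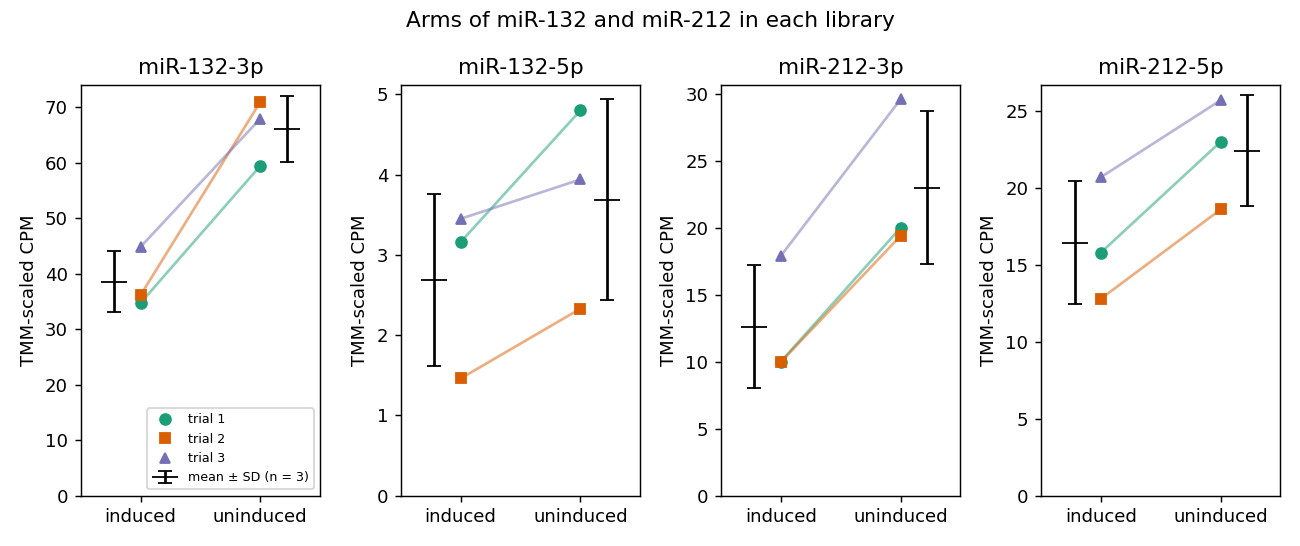
TMM-scaled CPM (y axis, from 0) of each arm in the induced and uninduced libraries (x axis), with lines joining libraries of the same trial and black bars for mean ± SD (n = 3). Every line is lower on the induced side, and the groups are separate for miR-132-3p and miR-212-3p only.

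mmu-miR-132-3p, the arm known as the main product of its hairpin, was the most abundant member and ranked 206th of the 525 by mean level. It had 34.7, 36.1 and 44.8 CPM in the induced libraries of trials 1, 2 and 3, against 59.4, 70.9 and 67.9 CPM in the uninduced libraries. Every induced library was thus below every uninduced library. The read counts behind these values were 418, 322 and 610 induced, against 556, 638 and 742 uninduced. The means were 38.5 ± 5.46 CPM in induced and 66.1 ± 6.00 CPM in uninduced cells (SD, n = 3 each). In log2 units miR-132-3p fell by 0.78 (SE 0.16), and its edgeR adjusted p was 0.0200. The edgeR call was lost without 1 library in 4 of 6 such fits, with adjusted p = 0.122 and 0.101 when the induced library of trial 1 or of trial 2 was left out. It was 0.0651 and 0.0879 when the uninduced library of trial 1 or of trial 2 was left out. The log2 change stayed between -0.94 and -0.70 in these fits, which had no block. With the trial as a block the edgeR adjusted p of miR-132-3p was 2.8e-04 (log2 change -0.78, SE 0.10). In the blocked fit without trial 3 it was 0.0587.

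mmu-miR-212-3p, which carries the same seed, had 10.0, 9.98 and 17.9 CPM in the induced libraries of trials 1, 2 and 3, against 20.0, 19.4 and 29.6 CPM in the uninduced libraries. Trial 3 was the highest in both groups, and every induced library was again below every uninduced library. The groups of 2 of the 4 members were separate in this way, which held for 11.6% of the 525. The log2 change of miR-212-3p was -0.86 (SE 0.27), numerically larger than that of miR-132-3p, with an edgeR adjusted p of 0.102. With the trial as a block the adjusted p was 3.05e-04 (log2 change -0.88, SE 0.12), and it was 0.0536 in the blocked fit without trial 3. Unblocked, the adjusted p for this arm was 0.0198 in DESeq2 and, without induced replicate 3, 0.0126 in edgeR.

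mmu-miR-212-5p, which is about as abundant as its partner arm, had 15.8, 12.8 and 20.7 CPM in the induced libraries of trials 1, 2 and 3. The uninduced libraries had 23.0, 18.6 and 25.7 CPM, so the groups overlapped through the induced library of trial 3. The log2 change was -0.44 (SE 0.21). Its adjusted p in edgeR was 0.267, or 0.0131 with the trial as a block. The blocked call was lost without trial 1, 2 or 3, at adjusted p of 0.0661, 0.0873 and 0.0867.

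mmu-miR-132-5p, the minor arm of its hairpin, was the rarest member, with 38, 13 and 47 reads in the induced libraries of trials 1, 2 and 3 and 45, 21 and 43 reads in the uninduced libraries. These counts gave 3.16, 1.46 and 3.45 CPM induced, against 4.80, 2.33 and 3.94 CPM uninduced. Trial 2 was the lowest in both groups, and the groups overlapped. The log2 change was -0.43 (SE 0.36). Its adjusted p in edgeR was 0.547, or 0.180 with the trial as a block. With the block, 3 of the 4 members were called lower in induced cells, where 11.0% of the 525 were.

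**Figure D2:**
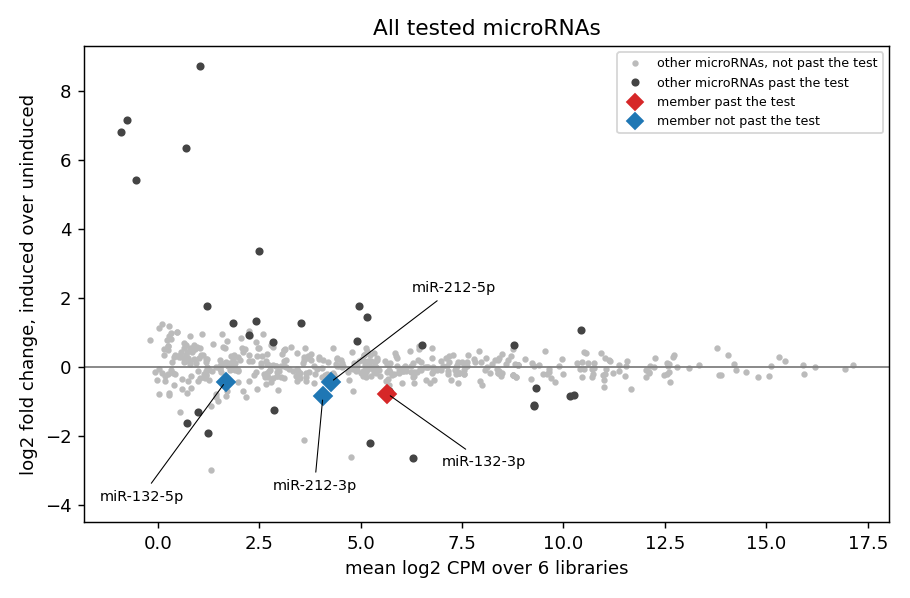
Log2 fold change, induced over uninduced (y axis), against mean log2 CPM over the 6 libraries (x axis) for the 525 tested microRNAs, with the 4 members as diamonds. The members lie between -0.86 and -0.43, with miR-132-3p the only member past the test fitted on the group alone.

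Within each trial both 3p arms were below their uninduced level. The induced level of miR-132-3p was 0.585, 0.509 and 0.659 times the uninduced level in trials 1, 2 and 3, and that of miR-212-3p was 0.503, 0.513 and 0.606 times. The ratio was nearest to 1 in trial 3 for each of the 4 arms. The 95% exact counting intervals of both 3p arms stayed below 1 in every trial, from 0.444 to 0.735 for miR-132-3p and from 0.393 to 0.718 for miR-212-3p over the 3 trials. The ratios of miR-212-5p were 0.687, 0.689 and 0.805, with intervals that also stayed below 1 and reached up to 0.953 in trial 3. miR-132-5p had ratios of 0.657, 0.624 and 0.877, and each of its intervals included 1, the widest from 0.287 to 1.31 in trial 2. These intervals compare the reads of 2 libraries and cover counting error of reads only. The labels describe no molecular identifiers, so the reads may not all be separate molecules.

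**Figure D3:**
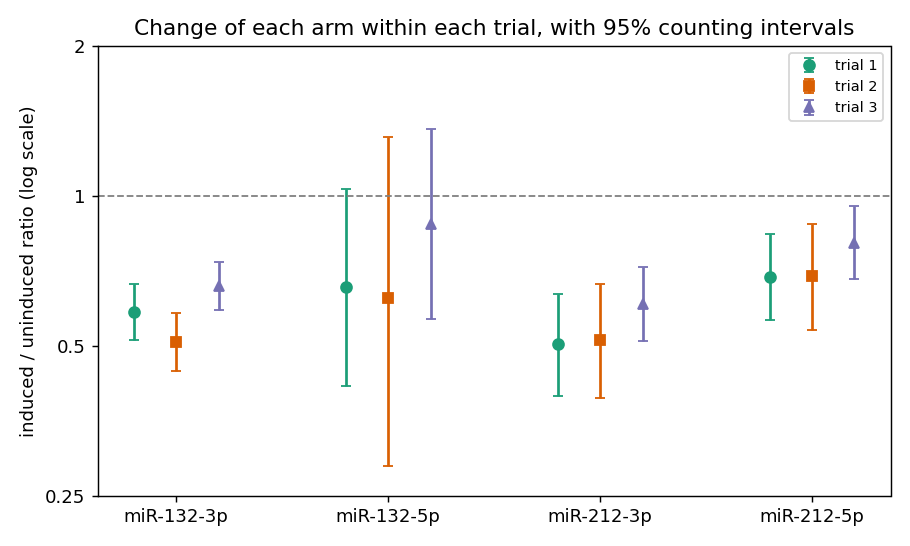
Ratio of induced to uninduced level (y axis, log scale) for each arm within trials 1, 2 and 3, with 95% exact counting intervals. All 12 ratios are below 1, and only the intervals of miR-132-5p reach across 1.

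Because the 3p arms share a seed, their levels were also added. The summed level of miR-132-3p and miR-212-3p was 44.8, 46.1 and 62.7 CPM in the induced libraries of trials 1, 2 and 3, against 79.3, 90.4 and 97.5 CPM in the uninduced libraries. The pool with this seed was thus at 57.5% of the uninduced level on average, and the groups did not overlap. The difference was -0.81 on the log2 scale, with a two-sided exact permutation p of 0.1, the smallest that 3 libraries against 3 allow.

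The composition of this pool moved less than its size. miR-212-3p made up 22.4%, 21.7% and 28.6% of the pool's reads in the induced libraries of trials 1, 2 and 3, and 25.2%, 21.5% and 30.3% in the uninduced libraries. The highest share was that of trial 3 in both groups. The ratio of miR-212-3p to miR-132-3p reads averaged 0.323 ± 0.0676 in induced and 0.349 ± 0.0811 in uninduced cells (SD, n = 3 each), a log2 difference of -0.11 (two-sided exact permutation p = 0.7). Its sign turned to 0.07 without uninduced replicate 3. The whole hairpins, 5p and 3p arms added, gave 41.2 ± 6.08 CPM induced and 69.8 ± 4.89 CPM uninduced for miR-132, and 29.1 ± 8.42 CPM induced and 45.4 ± 8.91 CPM uninduced for miR-212 (SD, n = 3 each). The log2 differences were -0.77 for the miR-132 and -0.66 for the miR-212 hairpin (two-sided exact permutation p = 0.1 and 0.2).

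The 2 hairpins differed in which arm gave the reads. The arms are 22 or 23 bases long, and a 5p to 3p read ratio is used here to compare libraries, not as a molar ratio. miR-132 was read almost wholly from its 3p arm, with a 5p share of 8.33%, 3.88% and 7.15% in the induced libraries of trials 1, 2 and 3 and of 7.49%, 3.19% and 5.48% in the uninduced libraries. The 95% exact binomial intervals of these shares ran from 2.08 to 11.3% over the induced and from 1.98 to 9.89% over the uninduced libraries. The trials differed more from each other than the groups did.

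miR-212 gave similar numbers of reads from both arms. Its 5p share was 61.1%, 56.2% and 53.6% in the induced libraries of trials 1, 2 and 3, against 53.5%, 48.8% and 46.5% in the uninduced libraries. The lowest induced share, in trial 3, and the highest uninduced share, in trial 1, were nearly equal, and each trial had the higher share in induced cells. As read ratios, the 5p arm of miR-212 had 1.57, 1.28 and 1.16 reads per 3p read in the induced libraries and 1.15, 0.954 and 0.870 in the uninduced libraries.

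**Figure D4:**
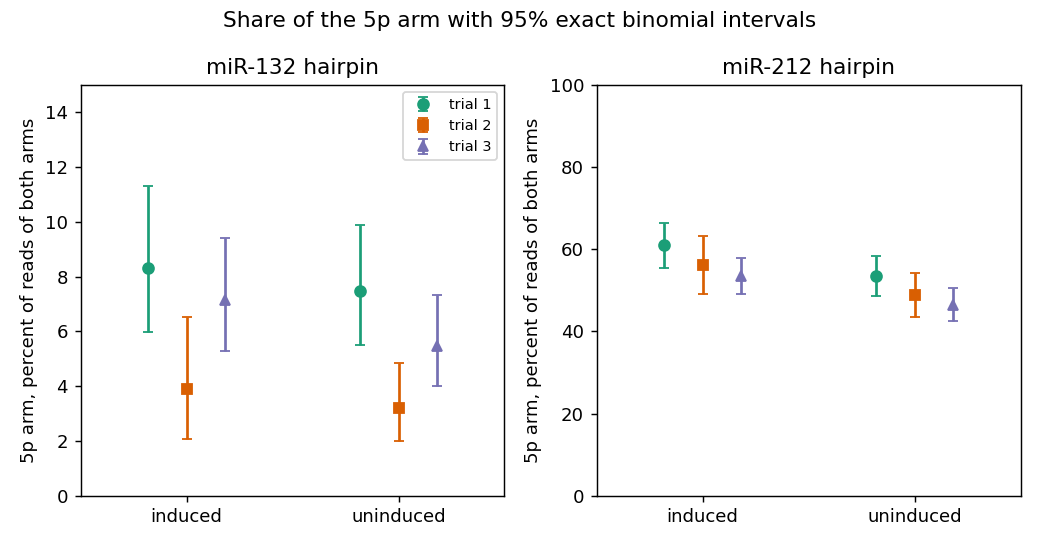
Share of the 5p arm among the reads of both arms of each hairpin (y axis, percent, with different ranges for the 2 hairpins) in induced and uninduced libraries, with 95% exact binomial intervals. In each trial the share is higher in the induced library, for miR-212 by about the same step. The induced and uninduced intervals overlap in each trial for both hairpins.

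Both ratios leaned toward the 5p arm in induced cells, that is, the 3p arm was lower by more than the 5p arm in each trial. The log2 ratio of 5p to 3p reads was higher by 0.45, 0.42 and 0.41 in trials 1, 2 and 3 for miR-212 and by 0.17, 0.31 and 0.41 for miR-132. A ratio that was higher in every trial was found for 30 of the 150 hairpins with both arms tested (20.0%). In limma, fitted over these 150 hairpins, the difference was 0.43 for miR-212 (SE 0.21, 95% interval -0.07 to 0.92, adjusted p = 0.986) and 0.30 for miR-132 (SE 0.41, 95% interval -0.64 to 1.24, adjusted p = 0.986). With the trial as a block the intervals were 0.18 to 0.67 for miR-212 and 0.02 to 0.57 for miR-132, and the unadjusted p was 0.00772 and 0.0395. After adjustment over the 150 hairpins these were 0.176 and 0.269, so a change of the arm ratio was not called for either hairpin with or without the block.

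The limma test called 1 of the 150 hairpins, or 0.667%, with and without the block. Without the block it was miR-342 (log2 difference -3.32, SE 0.42, adjusted p = 0.0091), whose rarer arm had 45 reads over the induced and 0 over the uninduced libraries, so that its uninduced ratio rests on the pseudocount of 0.5. Both arms of miR-342 were far higher in induced cells, with edgeR log2 changes of 6.809 (5p) and 8.725 (3p). The rarer arm could pass the filter on low counts only through the induced group. At an unadjusted p under 0.05 there were 7 hairpins (4.67%) unblocked, with neither miR-132 nor miR-212 among them, and 24 (16.0%) blocked, with both among them. With the signed differences of the 150 hairpins ordered from the highest, miR-212 ranked 7th and miR-132 17th. For miR-132 the sign depended on a single library, with a log2 difference of -0.05 without uninduced replicate 2.

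**Figure D5:**
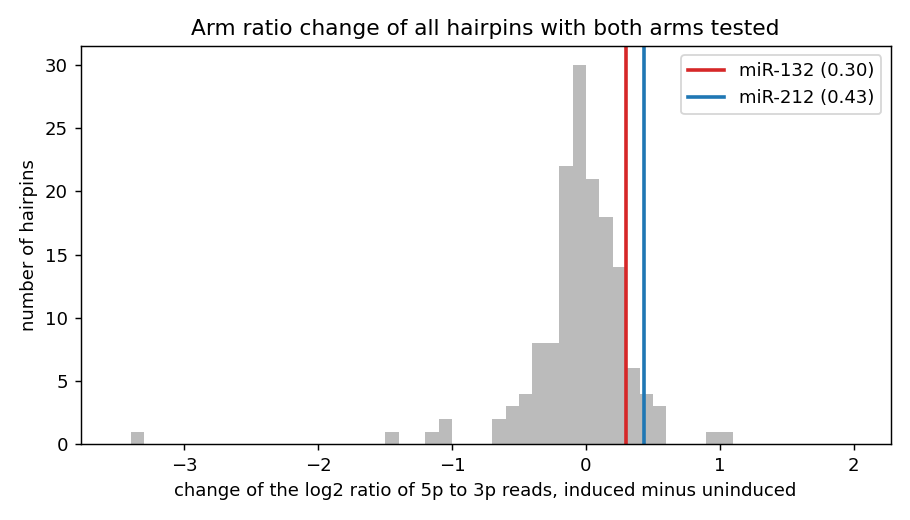
Number of hairpins (y axis) by the change of their log2 ratio of 5p to 3p reads, induced minus uninduced (x axis), for the 150 hairpins with both arms tested. The lines mark miR-212 at 0.43 and miR-132 at 0.30, on the upper side of the distribution.

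The levels of the arms were also compared with each other over the 6 libraries. The Pearson correlation of log2 CPM was 0.90 between the 3p arms and 0.86 between the 5p arms. It was 0.93 between the arms of miR-212 and 0.41 between the arms of miR-132. Across hairpins it was 0.76 between miR-132-3p and miR-212-5p and 0.61 between miR-132-5p and miR-212-3p. These 6 points hold both groups and both libraries of each trial, so the values describe these libraries only. Among 320 other microRNAs of at least 10 CPM, those most like miR-132-3p were miR-708-3p (r = 0.965), miR-5100 (0.963) and miR-199a-3p (0.959). miR-708-3p had 32.9 ± 11.6 CPM in induced and 205 ± 79.5 CPM in uninduced cells (SD, n = 3 each). Those most like miR-212-3p were miR-20a-5p (0.968), miR-143-3p (0.967) and miR-222-3p (0.961), whose log2 changes were -0.29, -0.39 and -0.17, none of them past the edgeR test. With the trial as a block the edgeR adjusted p was 0.0180 for miR-20a-5p, 0.00822 for miR-143-3p and 0.118 for miR-222-3p.

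Some of the microRNAs most like the 3p arms are stromal markers, so the whole stromal list is given. Its 10 names, arms of miR-143, miR-145a, miR-199a, miR-199b and miR-214, summed to 185 to 267 CPM in the induced and 304 to 346 CPM in the uninduced libraries, with miR-214-3p at 0 reads in every library. Of its 6 tested names 2 were called lower in edgeR, miR-199a-3p and miR-199b-3p at log2 changes of -0.69 each, and these entries have nearly the same counts. Without the block, 0 were called when induced replicate 1 or 2 or uninduced replicate 1 or 2 was left out. The 2 calls stayed without replicate 3 of either group. With the trial as a block 5 of the 6 were called lower, and 2, 3 and 0 in the blocked fits without trials 1, 2 and 3. Over all 525 microRNAs 2.67% were called lower unblocked and 11.0% with the block. The stromal part in the fall of miR-132-3p was not tested.

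The neural list was examined because the cluster is best known from neurons. Its 23 names summed to 408 to 459 CPM in the induced and 438 to 482 CPM in the uninduced libraries, so the groups overlapped. Of the 23 names 9 had 0 reads in every library, among them both arms of miR-124 and of miR-137, which are known as neuronal microRNAs. miR-128-3p, also made outside neurons, took most of the sum, with 324 ± 26.1 CPM in induced and 354 ± 39.7 CPM in uninduced cells (SD, n = 3 each). Of 8 tested names 1 was called higher, miR-218-5p, and 1 lower, miR-129-2-3p (log2 change -1.92, SE 0.30, edgeR adjusted p = 0.00444). Over all 525 microRNAs 3.43% were called higher and 2.67% lower. With the block miR-129-5p was also lower (edgeR adjusted p = 0.0137), where 11.0% of the 525 were. In the blocked fits without trials 1, 2 and 3 the number of neural names called, in either direction, was 3, 2 and 0. miR-218-5p had 1.66 ± 0.288 CPM in induced cells (SD, n = 3) and 0 reads in uninduced cells. It thus passed the filter on low counts only through the induced group and could be called only as higher.

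Of the other lists, the 12 lymphoid names summed to 29900 to 37800 CPM in the induced and 38300 to 40300 CPM in the uninduced libraries, and none was at 0. Of its 8 tested names 0 passed in edgeR, DESeq2 or limma-voom. Before adjustment 2 of the 8 had an edgeR p under 0.05, beside 20.8% of the 525. With the block 2 of the 8 were lower, both of them arms of miR-181a, beside 11.0% of the 525, and 0 were in the blocked fits without trial 1 or 3. The 14 epithelial names summed to 84.4 to 105 CPM induced and 34.6 to 42.8 CPM uninduced, opposite in direction to the cluster, with miR-203-5p, miR-205-3p and miR-429-5p at 0, and 3 of its 6 tested names were called higher (4 with the block). DESeq2 passed 2 of these names and limma-voom 1. Without the block, each fit that left out 1 library called 1 or 2 epithelial names higher. The blocked fits without trials 1, 2 and 3 called 3, 2 and 1. Over all 525 microRNAs 3.43% were called higher in edgeR unblocked and 10.7% with the block. The 5 erythroid names summed to 37.6 to 40.2 CPM induced and 22.9 to 36.6 CPM uninduced, with miR-144-3p at 0. The part of these cell types in the change of the cluster was not tested.

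Outside neurons the cluster is known from inflammatory signalling, so microRNAs reported to respond to Toll-like receptors or NF-kB were listed beside it. Of the 35 names on this list 26 were tested and 0 passed edgeR in either direction, where 6.10% of all 525 were called. At an unadjusted p under 0.05 there were 10 of the 26, beside 20.8% of all 525, and DESeq2 and limma-voom passed 0. The median log2 change of the 26 was -0.18, beside 0.02 over all tested microRNAs. The most abundant were miR-146b-5p, a brake on inflammatory signalling, at 0.04 (SE 0.13), miR-181a-5p at -0.29 (SE 0.12), miR-21a-5p at 0.54 (SE 0.16) and miR-27b-3p at -0.24 (SE 0.09).

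With the trial as a block 9 of the 26 inflammatory names passed, where 21.7% of the 525 did. The 2 that rose were miR-146a-5p (log2 change 0.56 in the blocked fit, edgeR adjusted p = 0.0373) and miR-125a-5p (0.47, edgeR adjusted p = 0.00687). The 7 that fell were miR-181a-5p, miR-181a-1-3p, miR-27a-5p, miR-27b-3p, miR-27b-5p, miR-155-3p and miR-125b-5p. Their blocked log2 changes ran from -0.24 for miR-27b-3p to -0.82 for miR-125b-5p. Without trials 1, 2 or 3 the blocked count was 4, 7 and 0.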

How the data were processed

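Read counts, raw per the file headers, were deposited as 2061 entries of mature microRNAs. The submitters' processing notes name the build mm10, DESeq2 in a version given as 2.1.8.0, and Trim Galore 0.4.0. Alignment was to miRBase, per the series' design text. Not given in the sources used here are the counter, the miRBase release and how reads with several matches were handled. A normalized table was not used.

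Each of the 1915 names was reduced to its entry of highest total. The test on counts was that of edgeR 4.0.16, run in R 4.3.3 (TMM, filterByExpr, robust glmQLFit, glmQLFTest, two-sided, group alone), adjusted by Benjamini-Hochberg at 0.05. CPM in the text is TMM-scaled. Log2 ratios of 5p to 3p reads, with 0.5 added to each, were fitted with limma 3.58.1 over hairpins whose 5p and 3p arms carry the same name and were both tested. DESeq2 1.42.0, limma-voom, other scalings, filters and entry rules, the trial as a block and leaving out libraries were the alternatives.

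Deviations from the group means correlated by 0.33, 0.45 and 0.53 between libraries of trials 1, 2 and 3, so, with each over 0.1, trials were taken as pairs. Libraries of 1 group differed beyond sampling noise (at least 111 in chi-square over its degrees of freedom). Arms and lists were chosen with earlier results of these data known. Named beside the 4 arms were same-seed microRNAs, the 3 most correlated with each 3p arm, the most abundant or called inflammatory microRNAs, and hairpins past the ratio test. The list members named for other cell types, and the counts by trial, were chosen after their values were seen.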

Additional observations from a re-analysis of the deposited data

How the results depend on the processing

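The log2 change of miR-132-3p was negative in all 17 alternatives, from -0.94 to -0.69, and passed in 12 of them. It was lost without 1 library in the 4 fits named above (changes of -0.94 to -0.70 over all 6) and in the blocked fit without trial 3 (-0.89). miR-212-3p was negative in all 17 (-1.24 to -0.63) and passed in 6, which were DESeq2 (-0.87), no filter on low counts (-0.85), the replicate block (-0.88), the blocked fits without trial 1 (-0.82) or 2 (-0.85) and the fit without induced replicate 3 (-1.24). miR-212-5p passed in 1, the replicate block (-0.45), and miR-132-5p in 0, with log2 changes of -0.68 to -0.17. The arm ratio change of miR-132 ran from -0.05 to 0.64 and that of miR-212 from 0.30 to 0.54 without 1 library, and neither passed in any of the 14 alternatives each had. The ratio of the 3p arms had a log2 difference of -0.27 to 0.07 without 1 library. The number of microRNAs called, 32, was 114 with the replicate block, 12 to 41 without 1 library, and 66, 60 and 12 blocked without trials 1, 2 and 3. The inflammatory list had 9 called with the block, 4, 7 and 0 blocked without trials 1, 2 and 3, 1 without the filter, 1 with summed entries and 0 to 3 without 1 library. The causes of these differences were not tested. The counts of miR-132-5p, 13 to 47 reads per library, limit its change and its arm ratio.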
